A study of Mus musculus with 8 samples.

Results

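A set of 198 array probes, from 185 genes, was well above background in the hindlimb muscle of all 4 mice lacking the coactivators p300 and CBP and in none of the 4 wild-type mice. They were chosen by a detection flag of the scanner software out of 26582 probes that could be named, from 20145 genes, so they make up 0.745% of the named probes. The choice itself used the difference between knockout and wild-type mice. Their levels in both groups are therefore given as a description, with no test. Tests are given for genes outside the members, and for probes chosen anew on part of the mice and tested in the rest. Those probes include the members, whose own choice used all the mice. The opposite pattern, well above background in all wild-type mice and in no knockout mouse, was shown by 185 named probes (0.696%).

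RNA of the extensor digitorum longus (EDL), a fast hindlimb muscle, came from 8 male C57BL/6 mice and was hybridised mouse by mouse to single-colour Agilent arrays. The 4 knockout mice (PCKO) carried an inducible, skeletal muscle-specific knockout of p300 (gene Ep300) and CBP (gene Crebbp), although their genotype label names CBP alone. The other 4 mice are labelled wildtype (WT). The protocol, given alike for both groups, describes tamoxifen, which switches the knockout on, by mouth on 5 days for the PCKO mice, beginning at 13 to 15 weeks of age. The labels do not say outright that WT mice received it. Muscle was collected 1 day after the final dose and after 4 h without food. The labels do not name the promoter that drives the recombinase or say whether WT mice carried it. An array reads the whole muscle, with its vessels, nerve endings and connective tissue. A change in the number of cells of a type and a change in RNA per cell cannot be told apart.

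p300 and CBP are paired acetyltransferases that transcription factors recruit to promoters and enhancers, where they acetylate histones and other proteins and help start transcription. Genes that a tissue does not use are usually held silent by repressors, by methylated or compacted chromatin, or simply by the absence of the factors that switch them on. Genes little used in adult muscle include many of those of synapses, sperm, sealed epithelia and dividing cells. Not all are silent: 24 of 40 listed cell cycle genes and 10 of 44 neuronal genes were well above background on all WT arrays. Whether the members were held silent in any of these ways was not tested.

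Each array had 43.5% to 46.1% of its probes well above background and 0 saturated spots. Averages of log2 signal, scaled to each array's 75th percentile, were lower in PCKO for Crebbp by 0.70 ± 0.11 (SE, limma adjusted p = 0.00038) and for Ep300 by 1.44 ± 0.11 (adjusted p = 5.5e-06). The labels do not say which exons were deleted, so these probes may lie outside them. All 20 listed markers of muscle fibres were well above background in both groups, as the tissue label says, and all 20 were lower in PCKO. With quantile normalization 16 were lower and 1 higher, and with centring on spike-in probes 16 were lower. The PCKO arrays were brighter as a whole, with 75th percentiles of 155.8 to 204.2 against 109.5 to 145.2 in WT. That difference was removed by the scaling of the differences but not from the detection flag.

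GC-rich starts were common among the members. Promoter windows of 300 bases (250 before to 50 after the start of the RefSeq gene, build GRCm38.p6) were at hand for 146 members and 15655 genes in all. The GC box GGGCGG, the core of the site bound by Sp1-type factors, stood on 1 strand or the other in 65.8% of the member windows and 49.7% of all windows. CpG pairs were at 0.6 or more of the number that base composition gives in 63.0% of members and 52.1% of all. The core of the TATA box, TATAAA, was in 7.53% of members and 12.7% of all. CCAAT was in 36.3% and 38.8%. The full cAMP response element TGACGTCA, the site of the CREB factors to which CBP owes its name, was in 2 members (1.37%) and 2.49% of all. The AP-1 site TGACTCA, read on both strands, was in 2.05% and 4.51%. These shares describe letters in a window and no test was made of them. All windows include those of genes not detected in this muscle, and 29.1% of named probes were on no array. No share was taken among detected genes alone, so whether the shares go with being detected was not tested. The windows of 4 of the brightest members follow, chosen after their values were seen, because all 4 genes are best known from the nervous system and differ in CpG content. GC boxes on either strand are in capitals.

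Gng13, chr17:25716922-25717221, + strand: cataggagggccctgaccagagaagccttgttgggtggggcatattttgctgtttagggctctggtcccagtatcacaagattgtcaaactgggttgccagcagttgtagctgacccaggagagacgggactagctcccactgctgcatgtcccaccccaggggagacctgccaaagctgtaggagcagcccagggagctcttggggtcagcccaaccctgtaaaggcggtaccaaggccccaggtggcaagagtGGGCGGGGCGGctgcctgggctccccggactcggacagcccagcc
S1pr5, chr9:21248394-21248693, - strand: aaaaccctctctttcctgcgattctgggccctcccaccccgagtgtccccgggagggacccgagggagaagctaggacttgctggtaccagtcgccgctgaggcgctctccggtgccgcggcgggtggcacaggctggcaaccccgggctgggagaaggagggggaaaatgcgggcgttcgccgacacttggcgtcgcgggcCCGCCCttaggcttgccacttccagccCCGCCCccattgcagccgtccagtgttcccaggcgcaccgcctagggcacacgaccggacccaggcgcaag
Scamp5, chr9:57468011-57468310, - strand: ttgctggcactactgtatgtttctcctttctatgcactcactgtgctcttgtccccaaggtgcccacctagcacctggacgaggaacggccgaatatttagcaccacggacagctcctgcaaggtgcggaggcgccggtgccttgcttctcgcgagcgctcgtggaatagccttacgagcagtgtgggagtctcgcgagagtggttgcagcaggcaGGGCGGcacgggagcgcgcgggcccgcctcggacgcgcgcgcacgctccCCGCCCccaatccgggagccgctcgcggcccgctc
Kcnj4, chr15:79505192-79505491, - strand: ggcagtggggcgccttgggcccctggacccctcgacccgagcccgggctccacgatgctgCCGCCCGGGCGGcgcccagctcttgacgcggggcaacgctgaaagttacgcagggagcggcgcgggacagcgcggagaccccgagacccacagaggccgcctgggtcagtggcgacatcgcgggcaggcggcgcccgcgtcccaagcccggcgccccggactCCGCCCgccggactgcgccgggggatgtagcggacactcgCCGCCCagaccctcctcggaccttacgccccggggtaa

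Kcnj4 held 4 boxes and the others 2 each. Observed over expected CpG was 0.21 in the Gng13 window, against 0.75 in S1pr5, 0.98 in Scamp5 and 0.95 in Kcnj4. The Gng13 window was thus the CpG-poor one of the 4, with both GC boxes in a short GC-rich stretch near its end.

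Most members were dim. Levels are the processed signal of the scanner software, in arbitrary units after its own background subtraction, and members are compared with each other only to show where they lie on the array's scale, since probes bind with different strength. The mean PCKO signal of the 198 probes ran from 16.0 to 609, with a median of 32.5 and quartiles of 25.2 and 46.3. There were 156 probes under 50, 27 between 50 and 100 and 15 at 100 or more. Named probes well above background on all 8 arrays (14755 probes) had a median of 525. The median member stood at percentile 5.31 of the 15492 named probes well above background in all PCKO mice, and the brightest member at percentile 52.7. WT means of the members lay between 2.03 and 9.75. The lowest signal that an array reported as well above background was 9.87 to 16.9 in PCKO and 9.47 to 10.9 in WT, so most members sat within a few-fold of the limit of detection.

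**Figure D1:**
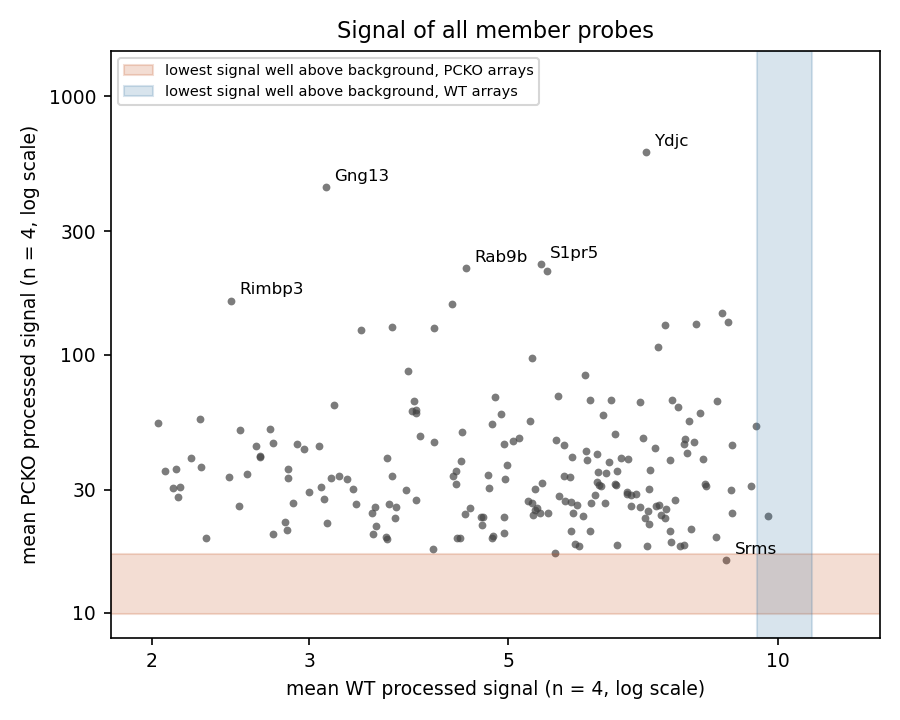
Mean processed signal of each of the 198 member probes in WT (x axis) and PCKO (y axis) muscle, both on log scales, with 4 mice a group. Shaded bands span the lowest signal called well above background on the arrays of each group; most members lie low on the PCKO axis, at a median of 32.5, and Ydjc and Gng13 stand highest.

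The size of a difference can be given only as a bound, because the WT signal was not well above background. The bound sets the mean PCKO value against WT values raised, where lower, to the lowest signal well above background on that array, after scaling. On the scanner's background subtraction, bounds ran from at least 1.10-fold to at least 43.0-fold higher in PCKO, with a median of 2.22. They do not hold as bounds under other ways of taking off the background, given below. The median log2 of the bounds was 1.15. The median log2 difference was 0.56 with a normexp model (offset of 1) and 0.58 in the deposited values, which list 114 members. In all, 120 probes were at least 2-fold higher, 18 at least 5-fold and 6 at least 10-fold, while 28 had bounds under 1.5-fold. Without the bound, the median log2 difference was 2.32, against -0.09 over all named probes. Of the 198 probes, 193 had all 4 scaled PCKO values above all 4 WT values, against 34.7% of the 15410 named probes on all WT arrays, and nothing is read from that, since the choice used the same contrast. Raw spots, before any processing, gave the same picture of a small step: the median member spot read 61.8 in PCKO and 34.9 in WT, over a local background of 27.9 and 29.4.

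Other readings of the same spots bear on the words "well above background". A weaker flag of the same software marks a spot as positive and significantly brighter than its local background. By that flag 98 of the 198 probes were detected on all 4 WT arrays, 52 on 3, 29 on 2, 10 on 1 and 9 on none. The 9 were probes of Tulp2, Espn, Nanos1, Aard, Map3k21, H1f10, Slc45a2, Nek2 and Ifnlr1, and they had mean PCKO signals between 25.9 and 56.5. A WT signal was thus present for most members, at a level too low to measure well. Dim differences also depend on how the background is taken off. With a normexp model of the background and an offset of 50, which is larger than the signal of most members, the median log2 difference of the members was 0.01. With an offset of 1, added after seeing the data, it was 0.56. The 12 brightest members kept their direction under both. Of the 38 genes named by rule, those that turned to lower in PCKO are marked below.

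The 12 brightest members with a gene name showed a clear gap between the groups, which the choice built in for bright probes. Ydjc, a homologue of sugar deacetylases of unsettled role in mammals, read 577.7, 640.9, 679.0 and 536.8 in the 4 PCKO mice and 3.48 to 9.33 in WT. Its 4 PCKO values spread little and its bound, at least 43.0-fold, was the largest of all members. Gng13, a G protein gamma subunit of taste and retinal cells, read 338.3, 603.1, 527.1 and 310.3 in PCKO and 2.17 to 4.51 in WT, at least 30.3-fold higher. Both lay well apart from the next brightest gene.

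S1pr5, a receptor for sphingosine 1-phosphate on oligodendrocytes and natural killer cells, read 238.5, 260.1, 214.3 and 179.9 in PCKO and 2.57 to 9.79 in WT (at least 15.7-fold). Rab9b, a small GTPase of endosome traffic, read 180.9, 303.8, 176.5 and 205.7 against 2.03 to 6.72 (at least 15.0-fold). Nrip3, nuclear receptor interacting protein 3, read 199.7, 268.6, 183.9 and 189.2 against 3.75 to 7.29 (at least 14.7-fold). In each of the 3 genes the lowest PCKO mouse was far above the highest WT mouse, a gap of the same built-in kind. Reep2, which shapes the endoplasmic reticulum and is best known in neurons, read 144.0, 192.8, 156.4 and 131.7 against 2.38 to 6.89 (at least 11.0-fold).

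Rimbp3, a binding protein of the sperm manchette, did not behave evenly. It read 419.4 in PCKO 1 but 88.6, 69.9 and 68.7 in the other mice, against 2.32 to 2.63 in WT. Its mean of 162 ± 172 (SD, n = 4) therefore rests on 1 mouse, and the other 3 would place it below the 12 brightest. Pld6, the mitochondrial nuclease that helps make piRNAs in germ cells, was uneven the other way. It read 75.7 in PCKO 3 and 171.9, 191.9 and 142.0 in the others, against 5.44 to 10.4 in WT (at least 9.52-fold).

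The last 4 of the 12 were of like brightness. Scamp5, a secretory carrier protein of synaptic vesicles, averaged 133 ± 33.0 in PCKO and 8.80 ± 2.16 in WT (SD, n = 4 each). Ropn1l, a protein of the sperm flagellum, averaged 131 ± 13.2 and 8.11 ± 1.27. Rnf208, a RING finger protein, averaged 130 ± 15.3 and 7.48 ± 1.74. Kcnj4, the inward rectifier potassium channel Kir2.3, averaged 127 ± 33.2 and 3.71 ± 2.09. Bounds of the 4 were 9.12-fold, 9.27-fold, 9.09-fold and 8.79-fold.

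**Figure D2:**
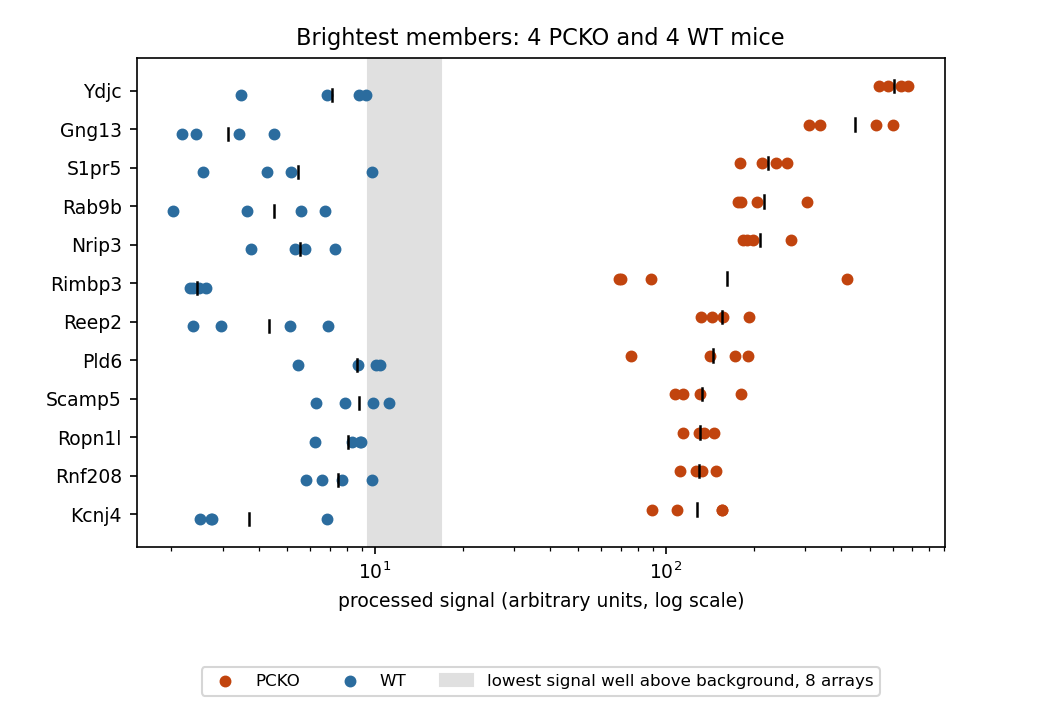
Processed signal (arbitrary units, log scale) of the 12 brightest named members in every mouse, PCKO in orange and WT in blue, with black bars at the group means. The grey band spans the lowest signal well above background on the 8 arrays; all PCKO values lie to its right, and Rimbp3 shows 1 mouse at 419.4 away from the other 3.

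The dimmest members lay at the edge of the flag. Srms, a Src-like kinase of epithelia, read 11.3, 19.2, 19.4 and 14.1 in PCKO and 7.14 to 11.4 in WT, so the groups overlapped. Stk4, the Hippo pathway kinase, averaged 17.1 ± 2.23 against 5.64 ± 0.58, and Csnk2a2, a catalytic subunit of casein kinase 2, averaged 18.1 ± 1.85 against 6.01 ± 2.42. Under both normexp corrections all 3 turned to lower in PCKO, with log2 differences of -0.38 and -0.53 for Srms, -0.25 and -0.10 for Stk4 and -0.25 and -0.14 for Csnk2a2 (offsets of 50 and 1). Stk4 and Csnk2a2 are expressed widely, and each had another probe well above background in all WT mice, at WT means of 81.7 and 415.

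Just outside the rule were probes found in 1 WT mouse or missed in 1 PCKO mouse. Of the probes on all PCKO arrays and 1 WT array (144 probes), the brightest was Cspg5, a brain proteoglycan, at 264.6, 387.5, 268.7 and 210.5 in PCKO and 28.05 in WT 4, with the other WT mice at 1.96 to 5.67. Sh3rf3 and Rapgefl1 were next, at 176 and 174. Of the probes on 3 PCKO arrays and no WT array (102 probes), Fndc3c1, Gstm6 and D3Ertd751e were the brightest, at means of 43.4, 41.3 and 29.2. The boundary thus leaves out some genes with larger differences than most members.

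The member genes were sorted into classes by hand from common knowledge of where they are used, after the members were known. A gene that is used in several tissues was put where it is best known, so the counts are a guide. Genes outside the members were not sorted, so no share over all named genes stands beside these counts. They do not show whether a class is more frequent among members. Genes named in the class accounts beyond the brightest, the dimmest and those from families and lists were chosen after their values were seen. The largest defined class was the nervous system, with 31 genes (16.8% of the 185) and a median PCKO signal of 40.1. Zinc finger proteins, transcription factors and chromatin proteins gave 22 genes, enzymes and transporters 19, testis and sperm 15, cell division, DNA repair and histones 15, cilia and microtubules 12, epithelial junctions 11, and blood and immune cells 9. Another 42 genes were widely expressed or fitted no class, and 9 bore clone or predicted names.

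**Figure D3:**
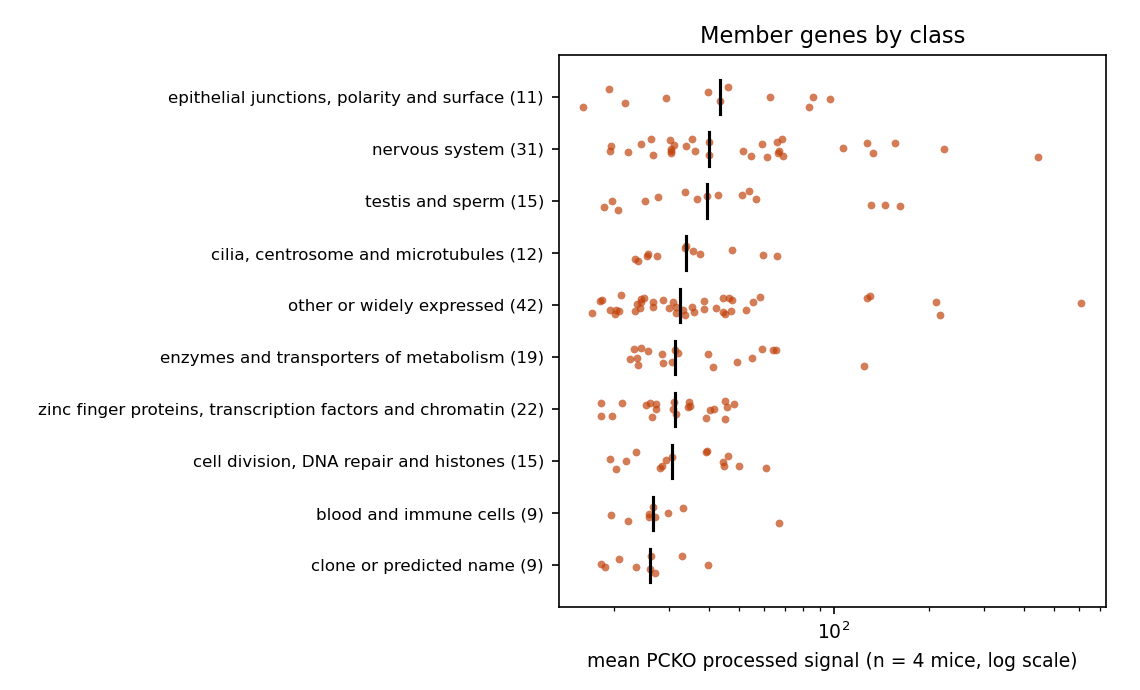
Mean PCKO processed signal (4 mice, log scale) of the member genes by class, 1 point a gene by its brightest member probe, with the number of genes in brackets and black bars at the class medians. Class medians lie between 26.0 and 43.5, and the nervous system, testis and unclassed genes reach 100 or more most often.

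The nervous system genes covered signalling, vesicles, channels and the cytoskeleton. Besides Gng13, S1pr5, Reep2, Scamp5 and Kcnj4, they held Sh2d5, an adaptor of brain synapses, at 106.9 ± 24.0 in PCKO and 7.35 ± 3.02 in WT. Hes5, a Notch-driven repressor of neural progenitors, averaged 66.8 ± 7.96 against 6.17 ± 2.33. Nps, neuropeptide S, averaged 61.2 ± 16.7 against 3.94 ± 2.22. An adaptor, a transcriptional repressor and a secreted peptide thus stood side by side. Magee1, a MAGE-family protein of the dystrobrevin complex, averaged 68.4 ± 9.51 once 1 outlier spot was left out. With that spot kept, PCKO 4 read 2015 and the mean rose to 556, so the level depends on the treatment of 1 spot.

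Nefh and Uchl1 were the members on the list of 44 neuronal markers. Nefh, the heavy neurofilament chain, read 64.9, 54.1, 46.3 and 52.8 in PCKO and 1.88 to 2.19 in WT, at least 3.84-fold higher. Another Nefh probe was well above background on no array of either group, at means of 3.60 in PCKO and 2.25 in WT. Uchl1, a ubiquitin hydrolase abundant in neurons, read 20.9, 53.4, 21.4 and 25.2 against 5.92 to 8.90. Nefh was even over the mice, while Uchl1 stood highest in PCKO 2 and turned to -0.09 under the normexp correction with an offset of 50. The rest of the list did not move with them. Of 12 tested non-members, 2 were higher and 7 lower, with a median log2 difference of -0.53 against 0.06 over all genes tested. Chgb, among the higher, was well above background on 1 WT array only, so its difference is not given. Defining markers such as Syt1, Tubb3, Nefm, Syn1 and Elavl3 were among 19 list genes on no array, and the summed signal of the list, in units of each array's 75th percentile, was 54.6 to 57.8 in PCKO against 85.6 to 94.9 in WT. Cplx2, a synaptic complexin, made up most of that sum, and without it the sum was 15.5 to 17.2 against 25.5 to 30.2.

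The testis and sperm genes were led by Rimbp3, Pld6 and Ropn1l. Tulp2, a tubby-like protein of the testis, read 42.9 to 70.1 in PCKO and 2.15 to 2.40 in WT, and was detected in no WT mouse by the weaker flag either. Others of the class were dimmer, most of them under 50. With members at 185 of 20145 named genes, little can be read from the absence of members among the 57 genes of the germ cell list. Of its 8 tested genes 3 were higher and 2 lower (median 0.63): Insl6, a relaxin-like hormone of male germ cells, was higher by 4.86 ± 0.09 (SE, limma adjusted p = 5.6e-09) and Odf2, of sperm tail fibres and centrioles, by 2.66 ± 0.12 (adjusted p = 2.9e-07). The third, Tsks, was well above background on 1 WT array only. Most of the list, 36 genes, was on no array, among them the defining germ cell genes Ddx4, Sycp1, Prm1, Tnp1 and Piwil1. The summed signal of the list, in the same units, was 32.5 to 37.3 in PCKO and 103.3 to 105.0 in WT. That order rests on Zbtb16, a transcription factor also used outside germ cells, which was lower at -2.29 ± 0.08 (SE, limma adjusted p = 6.4e-08). Without it the sum was higher in PCKO, at 14.02 to 14.74 against 3.08 to 3.48.

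Junction and polarity genes formed a small class with a median of 43.5. Marveld2, tricellulin of tight junction corners, averaged 97.0 ± 27.7 in PCKO and 5.32 ± 2.07 in WT. Patj, a scaffold of the Crumbs polarity complex, read 102.0, 92.2, 81.2 and 68.7 against 2.43 to 7.37, at least 6.04-fold higher, and a probe for a further transcript was also a member at 46.7 ± 9.01. Ajm1, an apical junction component, averaged 83.5 ± 30.5 against 6.10 ± 1.38. Another Ajm1 probe was well above background on 1 PCKO array only, at means of 3.87 in PCKO and 3.73 in WT. The 3 proteins belong to the apical side of epithelial cells. None of the 39 listed epithelial and keratinocyte markers was a member, near the share of 185 in 20145 named genes. Of that list 22 were on no array, Cdh1 and Epcam among them, and of 7 tested 2 were higher and 3 lower (median -0.07).

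Cilia and microtubule genes included 2 enzymes that modify tubulin. Agbl5, a deglutamylase, averaged 65.9 ± 8.98 against 8.55 ± 1.22, and Atat1, the tubulin acetyltransferase, had member probes for different transcripts at 47.5 ± 4.56 and 28.8 ± 5.66. Ccdc65 and Ccdc39, proteins that assemble the motile cilium, averaged 33.7 ± 7.35 and 25.5 ± 6.64. Ccdc112 averaged 37.5 ± 10.8. All were low in WT, with means of 2.44, 5.39 and 4.99, and Ccdc39 turned to -0.16 with the normexp offset of 50.

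Cell division genes were dim, with a median of 30.7 and none at 100. The brightest was Gins2, a subunit of the replicative helicase, at 60.7 ± 17.9 against 3.90 ± 2.16. Cdkn2a, whose products p16 and p19 hold back the cell cycle, read 45.5, 45.6, 42.1 and 23.7 against 3.90 to 8.75, and was the only member among 40 listed cell cycle genes. Another Cdkn2a probe was well above background on no array, at means of 2.86 in PCKO and 2.22 in WT. Of the other 25 tested genes of that list 8 were higher and 8 lower (median 0.16), near the 38.3% and 32.7% over all genes tested. Ccne1, cyclin E1, was higher by 4.41 ± 0.27 (SE, limma adjusted p = 1.5e-06) and Ccnd1, cyclin D1, was lower at -2.42 ± 0.16 (adjusted p = 2.6e-06).

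The genes placed in the class of zinc finger proteins, transcription factors and chromatin proteins were dim, at 18.2 to 48.2. Hes5, also a transcription factor, was counted with the nervous system. By symbol, the Zfp family of zinc finger proteins gave 9 members, 4.86% of the member genes against 1.78% of all named genes. Zfp169 averaged 41.7 ± 2.89 against 7.93 ± 2.24, and Zfp599 averaged 34.6 ± 5.69 against 2.55 ± 0.63. For Zfp169, Zfp111, Zfp583, Zfp961 and Zfp984, which are 5 of the 9, another probe was well above background in all WT mice, at a WT mean of 27.1 for Zfp169. Zfp873 averaged 34.9 ± 10.72 against 6.43 ± 4.34 and lost its difference with the normexp offset of 50 (-0.009). Junb, an AP-1 subunit and early response gene, read 70.4, 39.4, 26.4 and 44.0 in PCKO and 1.87 to 5.42 in WT. It was the only member among 31 immediate early genes. Of the 24 others tested 12 were higher and 5 lower (median 0.67), Csrnp1 by 2.55 ± 0.31 (SE, limma adjusted p = 9.5e-05) and Nr4a2 by 1.85 ± 0.12 (adjusted p = 2.2e-06) higher, while Jun was lower at -1.50 ± 0.19 (adjusted p = 0.00012).

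Other families by symbol were small. The Ccdc family gave 5 members and the Slc transporters 5, which is 2.70% of member genes each against 0.635% and 1.84% of named genes. Slc9b2, a sodium and proton exchanger, averaged 65.6 ± 26.0 against 7.01 ± 3.12. Slc13a5, the citrate carrier of liver and brain, had 2 member probes at 31.3 ± 8.72 and 25.8 ± 5.21, the brighter of which turned to -0.04 with the normexp offset of 50. Slc45a2, a transporter of pigment granules, averaged 30.5 ± 3.70 against 2.11 ± 0.15.

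RING finger genes gave 4 members of 79 named genes, Tmem genes 3 of 227 and Ttc genes 3 of 39. These were 2.16%, 1.62% and 1.62% of member genes, against 0.392%, 1.13% and 0.194% of named genes. Rnf207 averaged 55.3 ± 2.66 against 7.97 ± 1.13, with PCKO values of 52.1 to 57.9. Rnf32 averaged 25.1 ± 5.00 against 7.50 ± 1.96. Among transmembrane proteins Tmem74b averaged 58.4 ± 9.67, Tmem237, of the ciliary transition zone, 23.4 ± 3.25 and Tmem88b 20.4 ± 3.72. Ttc39a averaged 44.4 ± 8.31, Ttc5 33.1 ± 3.68 and Ttc39b 28.7 ± 3.87. Of these, Rnf32 (-0.14), Tmem237 (-0.19), Tmem88b (-0.19) and Ttc39b (-0.08) turned to lower in PCKO with the normexp offset of 50. Another Ttc5 probe was well above background in all mice of both groups, at means of 405 in PCKO and 243 in WT. Its scaled log2 difference was 0.23 ± 0.35 (SE, limma adjusted p = 0.57). Some large families gave no members: 0 of 1070 olfactory receptor genes, 0 of 256 vomeronasal receptor genes and 0 of 53 keratins. These families are 5.31%, 1.27% and 0.263% of named genes. Members are 185 of 20145 named genes, so 0 of 53 keratins is near that share. Krt10, Krt18 and Krt19 were well above background in all WT mice, so they could not have been chosen by those probes.

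Enzymes and hormones were scattered. Rgn, regucalcin of the liver, averaged 124 ± 35.2 against 3.43 ± 1.57. Sct, the gut hormone secretin, averaged 127 ± 36.9 against 4.13 ± 1.71. Lists of marker genes of such organs gave no member: 0 of 30 for liver and 0 of 29 for kidney, gut, pancreas and lung, of which 7 and 23 were on no array. With members at 185 of 20145 named genes, 0 is near that share in lists of this size.

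Blood and immune genes were the dimmest defined class, with a median of 26.6. Fut4, a fucosyltransferase of myeloid cells, led it at 66.9 ± 16.2 against 6.52 ± 3.05. Another Fut4 probe was well above background on 1 WT array and no PCKO array, at means of 2.82 in PCKO and 6.22 in WT. Lck, the kinase of the T cell receptor, read 19.7, 30.9, 38.4 and 14.8 in PCKO and 2.09 to 11.7 in WT, and turned to -0.14 with the normexp offset of 50. It was the only member on the list of 17 T and NK cell genes. Of the other 6 tested genes of that list none was higher and 5 were lower (median -1.35). Gzma, among the lower, was well above background on no PCKO array. Cd3d, Cd3g and Cd8a were on no array, and the summed signal of the list was 1.46 to 1.69 in PCKO against 3.99 to 4.55 in WT.

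Markers of several, but not all, other cell types in a muscle, beside which these members stand, were mostly lower in PCKO. Of tested non-members, 12 of 16 macrophage genes, 12 of 13 endothelial genes, 15 of 16 fibroblast genes and 5 of 12 Schwann cell genes were lower, and 1 Schwann cell gene was the only one of these lists that was higher. Median log2 differences of these lists were -0.85, -0.78, -1.40 and -0.66. Smooth muscle and pericyte genes were lower in 10 of 10, satellite cell genes in 7 of 10 and mast cell genes in 4 of 6. Other lists differed: 0 of 8 erythroid and platelet genes were called either way. Of 9 adipocyte genes 1 was higher and 1 lower, and of 5 neutrophil genes 0 were higher and 1 was lower. The background for such counts is 38.3% of 12739 tested genes higher and 32.7% lower, at an adjusted p under 0.05 in limma. These counts depend on the scale of the arrays. Centring on 7 spike-in probes moved the median gene from 0.06 to 0.73 and left 6765 genes higher and 1203 lower, against 4880 and 4170, and on that scale 3 macrophage, 1 endothelial and 0 Schwann cell genes were lower, while 10 fibroblast genes were lower and 2 Schwann cell genes were higher. Likewise 3 neuronal genes were then higher and 2 lower, 5 germ cell genes higher and 1 lower, 3 epithelial genes higher and 0 lower, 3 T and NK cell genes lower and 1 higher, and 3 cell cycle genes lower and 15 higher. Smooth muscle genes then had 0 lower, satellite cell genes 6 lower and 1 higher, and mast cell genes 3 lower and 1 higher. Erythroid and platelet genes had 5 higher, neutrophil genes 2 and adipocyte genes 1, with 0 lower in each. The part of cell composition in the members was not tested.

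**Figure D4:**
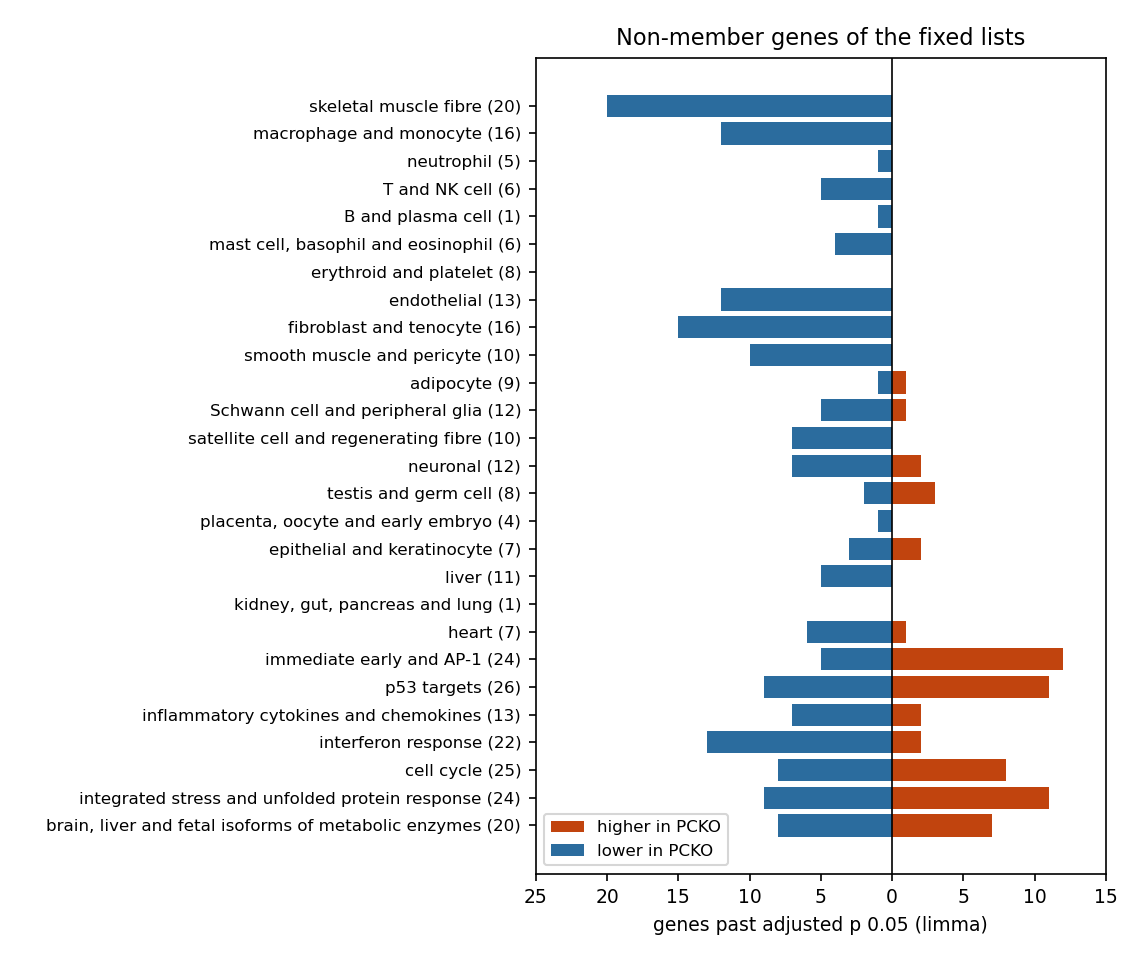
Number of tested genes outside the member set that were higher (orange, to the right) or lower (blue, to the left) in PCKO at adjusted p under 0.05 in limma, for each list, with the number tested in brackets. On this scale all 20 muscle fibre genes were lower (16 lower and 1 higher with quantile normalization), while immediate early genes had 12 higher and 5 lower.

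Other probes of the same genes show whether a gene, or only 1 probe of it, was missing in WT. No other probe was present for 111 of the 185 genes. Another probe was well above background on all 4 WT arrays for 37 genes and on some WT arrays for 12, and for 25 genes no other probe was on any WT array. In all 136 genes had no probe well above background in any WT mouse. Of the 89 further probes, 21 were on no array of either group, so they did not detect their gene in PCKO either. Genes named above with such a probe include Nefh, Cdkn2a, Nps, Nanos1, Ttc39a, Ccdc65, Ccdc112 and Zfp599. Further probes of Fut4, Fhdc1 and Kctd14 were each on 1 WT array and no PCKO array. The 37 genes had 41 probes on all 4 WT arrays. In 36 of these (87.8%) all PCKO values lay above all WT values, against 34.7% of 15410 named probes on all WT arrays. In 3 the groups were fully apart the other way. These values come from the same contrast that chose the genes and support nothing further.

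The other probes differed by a median log2 of 1.21, with a range of -0.81 to 3.44. Patj reached 3.44, Ropn1l 3.37, Cfap69 3.17 and Tmem74b 2.63. Fn3k (-0.81), Kctd14 (-0.39) and Elk1 (-0.29) were on the other side of 0 by their other probe, while their member probe was brighter in PCKO. The other probes of Elk1 and Kctd14 were bright. Their mean processed signals, before scaling, were 130700 in PCKO and 113300 in WT for Elk1 and 132400 and 123800 for Kctd14. That of Fn3k read 498 and 625, near the median of 525 of named probes well above background on all arrays. The sign for Elk1 and Kctd14 therefore depends on the scaling, and these 3 probes were well above background in all WT mice. A further Kctd14 probe was on 1 WT array and no PCKO array, at means of 4.35 in PCKO and 26.7 in WT. Probes of 1 gene can read different transcripts, and the sequences of the probes were not used here.

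**Figure D5:**
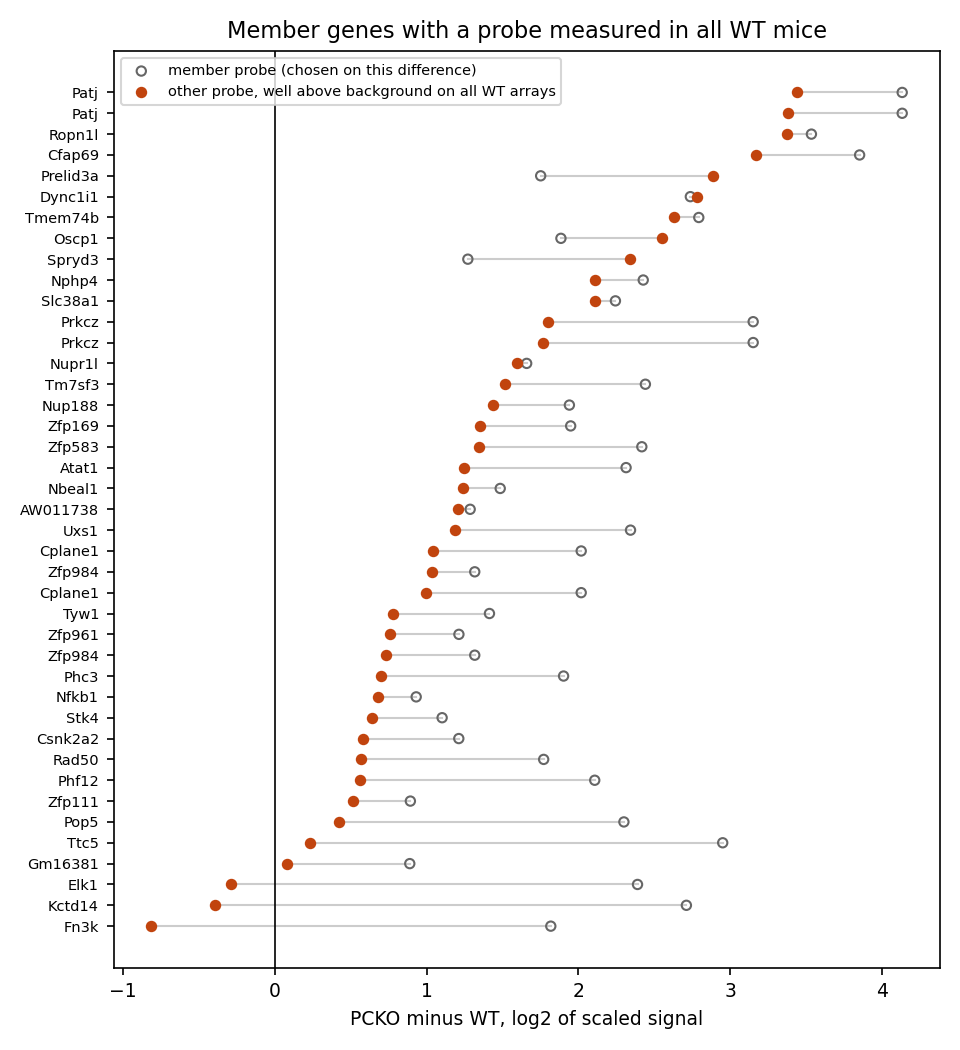
Log2 difference, PCKO minus WT, of 41 other probes (filled) of member genes that were well above background on all 4 WT arrays, 1 row a probe, with the largest difference of the gene's member probes (open). Filled points run from -0.81 (Fn3k) to 3.44 (Patj), and 3 genes lie below 0.

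The choice was repeated on part of the mice and tested in the rest. The arrays lay in 2 rows of 1 slide, each with 2 mice of either group. In both rows PCKO arrays held positions 1 and 2 and WT arrays 3 and 4, so position along the row and group cannot be told apart, and the repeat in the other row shares this. On row 1 alone 406 named probes (1.53%) met the rule. In the mice of row 2, 405 of them could be tested and 199 (49.1%) were higher in PCKO (limma, adjusted p under 0.05), against 11.0% of all 26503 named probes, and 2 were lower. The median log2 difference was 1.68 (-0.03 over all), 385 were above 0, and in 346 (85.2%) both PCKO values lay above both WT values, against 31.2% of all named probes.

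The other way round, 379 named probes (1.43%) met the rule on row 2. In row 1, 213 of the 379 (56.2%) were higher, against 9.39% of all named probes, and 2 were lower. The median difference was 1.75 (-0.16 over all), and 318 (83.9%) had non-overlapping values, against 29.4%. By construction the 198 members are common to both choices, so the row tests are no separate test of the members. These tests stood on the scanner's background subtraction. With the normexp offset of 50, 11 of the 405 and 59 of the 379 were higher. With the offset of 1, limma called 0 of the 405 (6 at an unadjusted p under 0.05) and also 0 of all named probes in row 2, with a median of -0.33 for the chosen probes against -0.66 for all, while 152 of the 379 were higher in row 1. Spike-in centring gave 357 and 281.

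Members are 185 of 20145 named genes, so few would be neighbours or near any given gene wherever they lay. Of 181 member genes that could be placed in the RefSeq order of coding genes, no pair were neighbours. No member was among the 38 coding genes around Crebbp or the 50 around Ep300 that were examined, up to 25 on each side. Both results are near the share over all named genes, and nothing is read from them. The genes directly next to members were not used by the rule. Of 249 tested, 111 (44.6%) were higher and 67 (26.9%) lower in PCKO, with a median log2 difference of 0.16. Among the 235 of these that were well above background on all WT arrays, 105 (44.7%) were higher and 66 (28.1%) lower, against 37.4% and 34.3% of 12064 genes of that kind. Spike-in centring left 20 lower.

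Upstream neighbours on the same strand were higher in 27 of 47 cases (57.4%), with a median of 0.54. The other sides gave 46.2% (median 0.12) upstream on the opposite strand, 46.2% (0.08) downstream on the same strand and 35.3% (0.09) downstream on the opposite strand, and no test compared the sides. Single neighbours, picked after their values were seen, show changes as large as those of the members, in both directions. Dhrs13, a dehydrogenase gene downstream of the member Phf12 on the same strand, was higher by 3.63 ± 0.09 (SE, limma adjusted p = 2.0e-08). Bdh2, upstream of Slc9b2 on the same strand, was higher by 2.63 ± 0.13 (limma adjusted p = 4.4e-07). Cklf, next to Cmtm2a on the opposite strand, was higher by 2.93 ± 0.09 (limma adjusted p = 3.2e-08). Lrrc30, next to Lama1, was lower at -7.98 ± 0.42 (limma adjusted p = 6.2e-07). BC048679, next to Ap3b2, was lower at -4.95 ± 0.36 (limma adjusted p = 4.5e-06), and Gm3646, next to Rfx8, at -4.48 ± 0.34 (limma adjusted p = 5.5e-06). Whether these lower neighbours were well above background in PCKO is not given here.

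The members varied among PCKO mice about as much as other probes of their brightness. The median coefficient of variation was 17.3% for members between the quartiles of signal and 17.9% for 1168 named non-members of the same range. PCKO 1 had the highest scaled value for 58 members, PCKO 2 for 53, PCKO 4 for 47 and PCKO 3 for 40.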

How the data were processed

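Agilent SurePrint G3 mouse arrays of 8 EDL samples (4 PCKO, 4 WT, grouped by title) were read from the deposited scanner files. Per the file headers, Agilent's Feature Extraction software (10.7.3.1) had turned the scans into spot intensity values, taken off background and spatial trend within the array and set the detection flags. The deposited series table holds log2 values that the authors made by steps not given in the sources used here. It lists 114 members and was an alternative. Columns of per-sample values that matched no sample numbered 0. The number of arrays limits the precision.

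Accessions were matched without versions to RefSeq (GRCm38.p6), naming 26582 of 55681 probes. The members, lists and tests were chosen with earlier results of these data known. Signals of the spots of 1 probe were averaged without outlier spots, and log2 signals were set against each array's 75th percentile. The detection flag was averaged over all spots, outliers kept, and leaving them out gave 199 member probes. Differences outside the members were tested in R 4.3.3 with the limma package, version 3.58.1 (lmFit, eBayes, two-sided, group only, no replicate block, Benjamini-Hochberg adjustment, threshold 0.05), on the brightest probe of each gene well above background on at least 4 of 8 arrays, and without that filter in the slide row tests. The fit was tested on simulated data. The labels do not say that the mice differ in litter or cage, so p-values measure only the spread between these mice.

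Genes were named by a rule: the 12 brightest, the 10 largest bounds, the 3 dimmest, up to 3 in each list and each symbol family of 3 or more member genes, and 3 with another probe on all WT arrays. Clone names were left out, and other names were picked after their values were seen. Alternatives were the weaker flag, level floors, other scalings, normexp background (on spot medians, the columns the files hold), the deposited values, single slide rows, blocks and leaving out each mouse.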

Additional observations from a re-analysis of the deposited data

Results flagged for a closer look

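Scaled log2 values of the named members were searched for an outlying mouse in each group of 4 (Dixon, 95% level). Among 76 tests 6 were found, and chance alone flags about 1 in 20 groups. The processed signals of those mice follow. In PCKO, Rimbp3 stood out in PCKO 1 at 419.4, Pld6 was low in PCKO 3 at 75.75, Scamp5 was high in PCKO 2 at 180.6 and Patj was high in PCKO 1 at 102. In WT, where neither gene was well above background, Junb read 5.416 in WT 2 and Slc45a2 read 1.986 in WT 2. Patj and Slc45a2 stand out only after scaling, since their processed signals lie within or next to those of the other mice.

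Probes without a gene name were not used in the comparisons. Of 29099 such probes 183 (0.629%) met the same rule, and 243 met its mirror image. Most numerous were 101 probes placed on genomic regions and 30 on Ensembl transcripts. Their median PCKO signal was 27.5 and their highest 232.7.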

How the results depend on the processing

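The count of 198 member probes became 69 by the weaker flag, of which 9 were shared with the 198, 458 by a common floor on spike-in centred values, 130 where the lowest PCKO value had to be 2-fold over the highest WT value, and 406 and 379 on slide rows 1 and 2 alone. Leaving out 1 mouse gave 201 to 286, the highest without WT 2, where a smaller number of arrays can by construction only add probes. A common floor on the main scale gave 223 in PCKO only and 228 in WT only, with 171 of the 198 shared, and on quantile normalized values 200 and 228. The median log2 difference of the members, 2.32, was 3.0 with spike-in centring, 1.15 with WT values raised to the floor, 0.576 in the deposited values, 0.0145 with the normexp offset of 50 and 0.563 with the offset of 1. An offset of 50 exceeds most members' signal by construction. For the other shifts the cause was not tested.

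Over all genes tested the deposited values gave 3130 higher and 2166 lower, and spike-in centring 1203 lower. Of probes chosen on row 1, 357 (spike-in), 11 (normexp, 50) and 0 (normexp, 1) were higher in row 2, and of those chosen on row 2, 59 (normexp, 50) were higher in row 1. With spike-in centring 20 neighbours were lower, and over all lists 98 genes were higher and 90 lower, against 62 and 175. With the normexp offset of 50 the log2 difference reversed for Lck (-0.141), Uchl1 (-0.0923), Zfp873 (-0.00903), Ccdc39 (-0.160), Slc13a5 (-0.0450), Rnf32 (-0.141), Tmem237 (-0.192), Tmem88b (-0.188), Ttc39b (-0.0772), Csnk2a2 (-0.252), Stk4 (-0.254) and Srms (-0.380). With the offset of 1, added after seeing the data, it reversed for Tmem237 (-0.0216), Csnk2a2 (-0.139), Stk4 (-0.0984) and Srms (-0.529). Of 250 alternatives for 38 named genes, 115 moved the difference by less than the spread between mice, 119 by more and 16 reversed it.

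With the replicate number as a block (replicate block) limma called 4789 genes higher and 4169 lower, against 4880 and 4170. Same-numbered mice of both groups correlated at 0.053 to 0.124 in their deviations and differently numbered ones at -0.136 to 0.046. Each mouse therefore resembled its own number most, a hint from the data and not the design, and the numbers were not taken as pairs. Signal over background limits every statement on dim members.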
